A study of Homo sapiens with 6 samples.

Results

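Of the 60675 genes counted in these libraries, 39 formed the set described here, the glycoproteins and proteoglycans of the extracellular matrix. They were given as a list of names and comprised 8 adhesive and matricellular glycoproteins, 14 proteins of elastic fibres and microfibrils, 7 proteoglycan core proteins, 3 linkers of the basement membrane and 7 other secreted or cell-surface matrix proteins. The cells were MDA-MB-231, an established human breast cancer line of the triple-negative, mesenchymal-like type. Total RNA depleted of ribosomal RNA was sequenced from 3 untreated control wells and from 3 treated wells, which had received 100 μM sodium ascorbate (vitamin C) over 3 days. In these data, vitamin C treatment went with higher transcript levels of 11 of the 24 matrix genes that were expressed well enough to test, and with a lower level of none at the same threshold. Over all tested genes 3.60% were called higher. Leaving out 1 library took the 11 to as few as 3 (without control 2), a fit in which 0.523% of all tested genes were called higher. Of 14 tested genes in a separate list of other matrix glycoproteins and proteoglycans, 0 were called by the same test. At an unadjusted p under 0.05 by edgeR, 4 of these were higher and 0 lower, against 14.3% and 13.1% of all tested genes. The members and lists were chosen with earlier results of these data known, so these counts are not an independent comparison.

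The extracellular matrix is the meshwork of secreted proteins around cells. Adhesive glycoproteins such as fibronectin bind integrins and link cells to that meshwork. Fibrillins assemble into microfibrils, onto which the latent TGF-beta binding proteins (LTBPs) anchor the growth factor TGF-beta in an inactive form, and proteoglycans carry long sugar chains that hold water and growth factors. In breast tumours much of the matrix is made by fibroblasts of the stroma, but carcinoma cells in culture also transcribe some of these genes. Vitamin C is known as a cofactor for the hydroxylases that mature collagen and for the TET enzymes that oxidise methylated DNA.

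The promoter sequences of FN1, of LRRC15 and of the LTBP family are shown because FN1, LTBP1 and LRRC15 were called higher whichever library was left out, and because all 4 LTBP genes were called higher with all 6 libraries. Each is the 250 bases upstream of a RefSeq transcription start on GRCh38.p14, the start nearest that of the canonical transcript. It is read 5′ to 3′ on the strand of the gene, and capitals mark matches, on either strand, to 6 short motifs. These were GGGCGG (the GC box), CCAAT (the CCAAT box), TATAAA (the TATA box) and TGACGTCA (the cyclic AMP response element). The others were TGACTCA (the AP-1 site) and ACGTG (a form of the core of the hypoxia response element, the only form searched).
FN1 (chr2:215436069-215436318, minus strand): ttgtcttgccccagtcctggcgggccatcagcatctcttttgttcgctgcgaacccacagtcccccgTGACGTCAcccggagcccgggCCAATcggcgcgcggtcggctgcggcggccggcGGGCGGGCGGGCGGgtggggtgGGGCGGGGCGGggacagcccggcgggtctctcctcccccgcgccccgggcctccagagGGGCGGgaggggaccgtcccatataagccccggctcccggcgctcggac
LTBP1 (chr2:32946703-32946952, plus strand): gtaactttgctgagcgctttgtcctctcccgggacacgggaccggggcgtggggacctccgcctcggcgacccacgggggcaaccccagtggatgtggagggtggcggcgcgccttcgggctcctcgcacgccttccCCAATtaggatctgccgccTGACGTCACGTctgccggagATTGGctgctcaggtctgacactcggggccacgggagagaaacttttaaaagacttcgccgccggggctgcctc
LTBP2 (chr14:74612238-74612487, minus strand): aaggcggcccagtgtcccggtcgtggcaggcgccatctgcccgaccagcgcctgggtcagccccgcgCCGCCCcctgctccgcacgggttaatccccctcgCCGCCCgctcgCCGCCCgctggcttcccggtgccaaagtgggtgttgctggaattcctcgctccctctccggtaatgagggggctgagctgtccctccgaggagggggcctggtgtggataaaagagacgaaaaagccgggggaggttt
LTBP3 (chr11:65558360-65558609, minus strand): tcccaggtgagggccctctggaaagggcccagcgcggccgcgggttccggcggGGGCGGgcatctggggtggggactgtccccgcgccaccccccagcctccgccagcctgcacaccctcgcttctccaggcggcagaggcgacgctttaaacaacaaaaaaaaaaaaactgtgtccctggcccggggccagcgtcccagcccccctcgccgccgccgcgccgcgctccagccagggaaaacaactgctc
LTBP4 (chr19:40601119-40601368, plus strand): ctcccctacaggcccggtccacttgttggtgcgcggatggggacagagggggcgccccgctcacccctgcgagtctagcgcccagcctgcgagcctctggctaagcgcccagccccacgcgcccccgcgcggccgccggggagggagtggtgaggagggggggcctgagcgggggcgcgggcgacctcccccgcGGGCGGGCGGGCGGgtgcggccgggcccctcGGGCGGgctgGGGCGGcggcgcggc
LRRC15 (chr3:194369744-194369993, minus strand): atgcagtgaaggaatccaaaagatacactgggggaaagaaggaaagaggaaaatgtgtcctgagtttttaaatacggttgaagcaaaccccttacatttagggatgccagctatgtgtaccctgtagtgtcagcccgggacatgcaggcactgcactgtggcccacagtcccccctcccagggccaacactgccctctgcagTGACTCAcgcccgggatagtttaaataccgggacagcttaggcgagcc

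FN1 and LTBP1 were the 2 members whose windows held the palindrome TGACGTCA. This palindrome stood in 2 of the 40 member windows and in 1.63% of all 34943 RefSeq promoter windows. It began 183 bases before the start of FN1 and 94 bases before that of LTBP1. In LTBP1 it overlapped a match to ACGTG, read on the opposite strand, and lay between 2 matches to CCAAT. The window of FN1 held 6 matches to GGGCGG, some of them overlapping, and 1 to CCAAT. GC boxes were the sole matches in the windows shown for LTBP2, LTBP3 and LTBP4, with 3, 1 and 5 of them. LRRC15 had none of these and instead a match to TGACTCA 48 bases before its start, a sequence found in 4.22% of all windows. Of the 39 members, 31 had at least 1 window and 40 windows were searched. EFEMP1, EMILIN1, ELN, DCN, LUM, AGRN, SPOCK1 and MATN2 had no window and were not searched. LTBP1, LTBP3 and LTBP4 had further windows at other starts, which are not shown. Those of LTBP1 held no match, and those of LTBP3 and LTBP4 held 1 GC box each. Member windows were rich in GC, with a median of 68.4% against 58% over all windows and a median of 19 CpG dinucleotides against 11. A GC box stood in 27 of the 40, against 42.5% of all windows, and CCAAT in 10 against 32%. TATAAA stood in 4 against 10.8%, and ACGTG in 6 against 18.5%. TGACTCA stood in 5 against 4.22%, those of LRRC15, ECM1, MFAP2, POSTN and SRPX2. Of these 5 genes edgeR called LRRC15 alone, and POSTN was not tested. A match is a description of the letters and was not tested for function.

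The libraries held between 13434130 and 22373591 counts assigned to genes, and levels are given as CPM, the counts of a gene relative to its library total on the usual per-megaread scale, with TMM factors adjusting for RNA composition. Between 24.2% and 49.5% of read pairs were unmapped, with the highest share in vitamin C 2, and mitochondrial transcripts held 1.01% to 1.79% of gene counts, with the highest shares in vitamin C 1 and vitamin C 2. All 4 markers listed as present in the line were detected. VIM averaged 1276 CPM in control wells and 1256 CPM in treated wells. In the same order AXL had 889 and 885 CPM, CD44 962 and 1143 CPM, and KRT18 206 and 229 CPM. Of 3 receptors listed as low or absent, ESR1 had 0 counts and PGR at most 4 counts in a library. ERBB2 was detected in every library, at 38.8 to 50.1 CPM. Markers of fibroblasts were nearly absent except PDGFRB. The 7 fibroblast markers summed to 6.66 to 10.9 CPM in control wells and 13.0 to 14.1 CPM in treated wells. The 6 other than PDGFRB reached at most 1.23 CPM, and 3 had at most 1 count in any library. PDGFRB itself measured 5.86, 9.54 and 9.0 CPM in control wells and 12.5, 11.5 and 13.2 CPM in treated wells (adjusted p = 0.0514 by edgeR and 0.0244 by DESeq2). Of 3 endothelial and blood markers, PECAM1 was at 0.569 to 2.16 CPM and higher after treatment by edgeR (adjusted p = 0.0439) but not by DESeq2 (0.0675), and its call was lost whichever library was left out. CDH5 and PTPRC had at most 2 counts in a library. The part of these sequencing measures and markers in the matrix results was not tested. In bulk RNA, more cells that express a gene and more RNA of that gene per cell cannot be told apart.

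The 39 genes together held a small share of all gene counts, not corrected for transcript length, that was higher in each treated well. They took 0.244%, 0.247% and 0.244% of gene counts in control wells and 0.310%, 0.295% and 0.315% in vitamin C wells. Control wells lay close together (0.245 ± 0.00164%, SD, n = 3) and below every treated well (0.306 ± 0.0105%, SD, n = 3). THBS1, encoding thrombospondin 1, made up 46.8% of the member counts, FN1 15.7%, FSTL1 12.2%, EFEMP1 5.33% and MATN2 4.98%. Without THBS1 the share was 0.127 ± 0.0116% against 0.165 ± 0.0156%. Without THBS1 and FN1 it was 0.0955 ± 0.00642% against 0.109 ± 0.00676%, so these 2 genes carried most of the difference, and the treated wells (0.110%, 0.102% and 0.115%) still lay above the control wells (0.0881%, 0.0987% and 0.0998%).

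**Figure D1:**
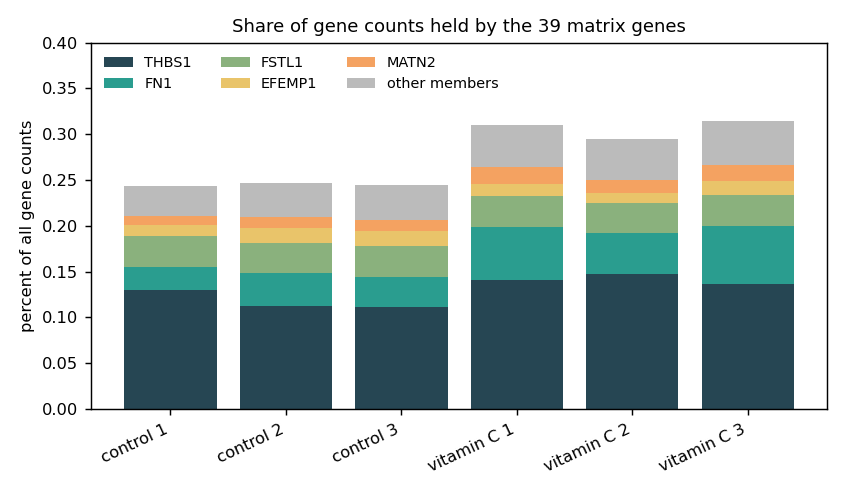
Percent of all gene counts held by the 39 matrix genes in each library, stacked by gene. The 3 vitamin C bars reach 0.295% to 0.315% and the 3 control bars 0.244% to 0.247%, with THBS1 the largest block in each.

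Of the 39 members, 24 passed the filter on low counts and entered the test, which ran over 15261 genes. The other 15 had at most 12 counts in any library. BGN and DCN, encoding the small leucine-rich proteoglycans biglycan and decorin, had 0 counts in all 6, which allows up to 3 counts per library or 0.133 to 0.222 CPM. The other untested members, with their counts summed over 6 libraries, were THBS2 (54), SPARC (43), VCAN (24), EMILIN1 (22), NID2 (19), SPOCK1 (15), FBN2 (5), SPP1 (4), ELN (3), FBLN5 (3), FBLN2 (1), NID1 (1) and POSTN (1). Transcripts of osteonectin, periostin, osteopontin, versican, elastin and both nidogens were therefore too rare at this depth to compare. Of the 24 tested, 23 exceeded the filter of about 0.537 CPM in all libraries of both groups, MFAP2 did so in the control group alone, and 0 passed through the vitamin C group alone.

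Among the 24 tested genes the edgeR quasi-likelihood test with Benjamini-Hochberg adjustment over all tested genes called 11 higher and 0 lower at an adjusted p under 0.05. Of all tested genes 7.08% were called, 3.60% higher and 3.48% lower. At an unadjusted p under 0.05, 14 members were higher (14.3% of all tested genes) and 2 were lower (13.1%). DESeq2 called 12 members higher and 0 lower, against 4.35% and 6.36% of the genes for which it gave an adjusted p, and 10 members were called higher and 0 lower by both tools (2.98% and 3.36% of all tested genes). The median log2 fold change was 0.36 over the 24 members and 0.015 over all tested genes, and 17 members had a positive value. Rises of the called members ranged from 1.27-fold to 2.13-fold. Every treated well lay above every control well for 14 of the 24 tested members and for 15.7% of all tested genes, and below for 1 member and for 16.6% of all tested genes.

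**Figure D2:**
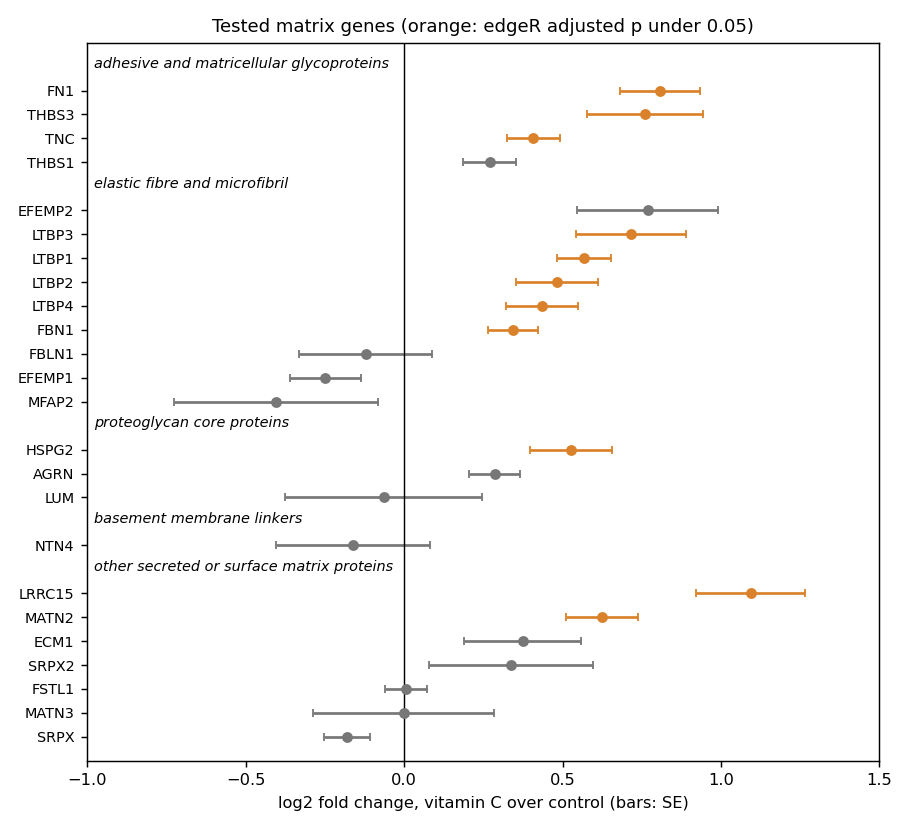
Log2 fold change, vitamin C over control, of the 24 tested matrix genes with its standard error, grouped by role and coloured orange where edgeR gave an adjusted p under 0.05. All 11 orange genes lie to the right of 0, between 0.34 for FBN1 and 1.09 for LRRC15.

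Of the 8 adhesive and matricellular glycoproteins, 4 were tested, 3 rose and 1 did not pass, with a median log2 fold change of 0.58. FN1 (ENSG00000115414, chr2:215360440-215436073) encodes fibronectin, the glycoprotein that integrins assemble into fibrils. It measured 259, 359 and 337 CPM in control wells and 585, 471 and 614 CPM in vitamin C wells. The groups did not overlap, and control 1 and vitamin C 2 were the low wells of their groups. Fibronectin transcript rose 1.75-fold, from 318 ± 52.2 to 557 ± 75.6 CPM (SD, n = 3 each), with a log2 fold change of 0.81 (SE 0.13) and an edgeR adjusted p = 0.00909. The DESeq2 adjusted p was 4.67e-08.

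TNC (ENSG00000041982, chr9:115019575-115118207) encodes tenascin C, a matricellular protein of remodelling tissue and tumour stroma. Control wells had 53.7, 52.3 and 60.1 CPM and treated wells 69.2, 72.6 and 78.4 CPM. Even the highest control well lay below the lowest treated well, and TNC rose by 0.41 on the log2 scale (SE 0.08, edgeR adjusted p = 0.0224). THBS3 (ENSG00000169231, chr1:155195588-155209051), a thrombospondin that forms pentamers, was far rarer, at 2.96, 4.08 and 4.53 CPM in control wells and 6.75, 7.32 and 5.77 CPM in treated wells. Its groups also stayed apart, and it rose 1.69-fold (log2 fold change 0.76, SE 0.18, edgeR adjusted p = 0.0351). The antisense gene THBS3-AS1 covers 25.9% of the exon length of THBS3 and went from 0.469 to 0.920 CPM (edgeR adjusted p = 0.111). The sources used here do not state whether counting used the strand, and reads of the pair may be mixed.

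THBS1 (ENSG00000137801, chr15:39581079-39599466), whose product binds CD47 and can activate latent TGF-beta, was the most abundant member. Control wells had 1305, 1112 and 1114 CPM and vitamin C wells 1398, 1515 and 1345 CPM. All treated wells were above all control wells, though control 1 and vitamin C 3 were close. The log2 fold change was 0.27 (SE 0.08) and did not pass by edgeR (adjusted p = 0.0702), while DESeq2 gave an adjusted p of 0.0461.

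Elastic fibres and microfibrils had 14 members, of which 9 were tested, 5 rose, 0 fell and 4 did not pass, with a median log2 fold change of 0.44. The 5 were FBN1 and the 4 LTBP genes. FBN1 (ENSG00000166147, chr15:48408313-48645721) encodes fibrillin 1, the backbone of microfibrils. Its values were 31.9, 30.3 and 32.2 CPM in control wells and 40.5, 39.9 and 39.3 CPM in treated wells. Both groups were tight and well separated, and FBN1 showed the smallest rise of the called members, 1.27-fold (log2 fold change 0.34, SE 0.08, edgeR adjusted p = 0.0316).

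The 4 LTBP genes all rose with all 6 libraries, although LTBP4 passed by edgeR and not by DESeq2, and their median log2 fold change was 0.53. Of the 4, LTBP1 alone kept its call whichever library was left out, and LTBP1 alone kept it after correction for GC content and transcript length. LTBP1 (ENSG00000049323, chr2:32946953-33399509), whose product is secreted bound to latent TGF-beta, had 28.0, 31.7 and 30.2 CPM in control wells and 43.6, 42.9 and 46.7 CPM in treated wells. The gap between the groups was several times the spread within either. LTBP1 rose 1.48-fold, from 29.9 ± 1.86 to 44.4 ± 2.01 CPM (SD, n = 3 each), and its log2 fold change was 0.57 (SE 0.08, adjusted p = 0.00787 by edgeR). By its unadjusted p it ranked 49 among all tested genes.

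LTBP2 (ENSG00000119681, chr14:74498183-74612378), a family member that binds fibrillin but is not known to hold latent TGF-beta, had 14.7, 19.5 and 18.2 CPM in control wells and 21.4, 23.7 and 28.0 CPM in treated wells. Its groups came nearest to each other at control 2 and vitamin C 1 without overlapping, and it rose by 0.48 on the log2 scale (SE 0.13, edgeR adjusted p = 0.0467). LTBP3 (ENSG00000168056, chr11:65538559-65558930), which also carries latent TGF-beta, had 3.99, 6.04 and 5.87 CPM against 9.93, 7.90 and 8.48 CPM. No treated well reached down to a control well, and control 1 was the lowest of all. It rose 1.64-fold (log2 fold change 0.71, SE 0.17, edgeR adjusted p = 0.0361).

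LTBP4 (ENSG00000090006, chr19:40592883-40629818), needed for elastic fibre assembly, had 9.05, 9.19 and 9.70 CPM in control wells and 11.8, 12.5 and 13.4 CPM in treated wells. The control wells were nearly equal and all lower than the treated wells. Its log2 fold change was 0.44 (SE 0.11) with an adjusted p of 0.0434 by edgeR and 0.0645 by DESeq2.

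**Figure D3:**
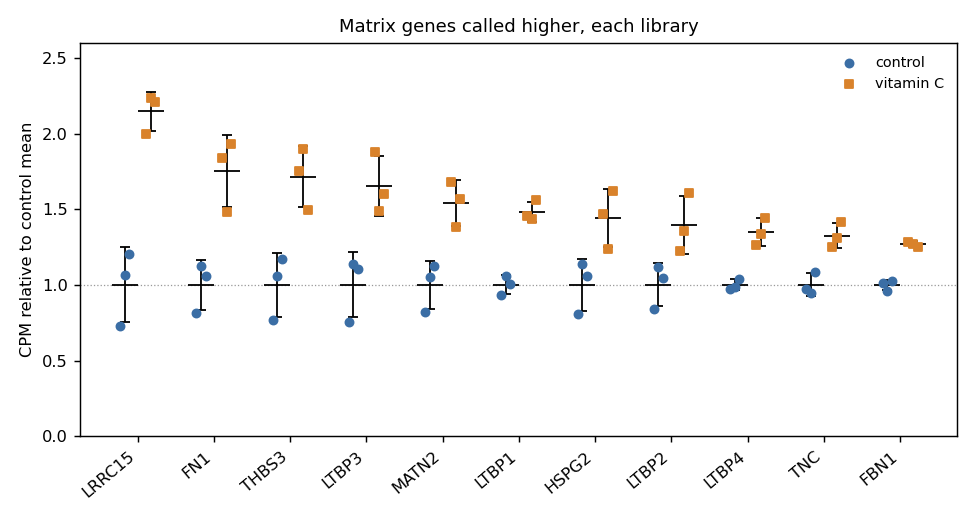
CPM of the 11 called matrix genes in each library, divided by the control mean of the gene, with the mean and SD of each group (n = 3 each, control as blue circles and vitamin C as orange squares). For every gene the 3 squares lie above the 3 circles, and control 1 is the lowest circle for 9 of the 11.

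Other elastic fibre genes did not pass. EFEMP1 (ENSG00000115380), encoding fibulin 3 and the most abundant of this group per length, had 130.5, 167 and 166 CPM in control wells and 135, 112 and 143 CPM in treated wells. The groups overlapped, since control 1 was below vitamin C 1 and vitamin C 3, and the difference on the log2 scale was -0.25 (SE 0.11, adjusted p = 0.179 by edgeR). Its relative EFEMP2 (ENSG00000172638), encoding fibulin 4, which helps to crosslink elastin, had 1.48, 2.13 and 2.64 CPM against 3.19, 3.98 and 3.56 CPM. Here the groups did not overlap, with a log2 fold change of 0.77 and an adjusted p of 0.0577 by edgeR and 0.0827 by DESeq2. FBLN1 (log2 fold change -0.12, edgeR adjusted p = 0.745) and MFAP2 (-0.40, edgeR adjusted p = 0.446), encoding fibulin 1 and a microfibril-associated glycoprotein, were both under 4 CPM and overlapped between groups.

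Of the 7 proteoglycan core proteins 3 were tested, 1 rose and 2 did not pass, with a median log2 fold change of 0.29. HSPG2 (ENSG00000142798, chr1:21822244-21937310) encodes perlecan, the large heparan sulfate proteoglycan of basement membranes. It had 34.7, 48.9 and 45.4 CPM in control wells and 63.0, 53.2 and 69.7 CPM in treated wells. As for FN1, control 1 and vitamin C 2 were the low wells of their groups, and the groups did not overlap. HSPG2 rose 1.44-fold (log2 fold change 0.53, SE 0.13, edgeR adjusted p = 0.0376). The antisense gene LDLRAD2 covers 11.7% of its exon length and went from 0.176 to 0.518 CPM, a level far below that of HSPG2.

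AGRN (ENSG00000188157), encoding agrin, a heparan sulfate proteoglycan that clusters receptors, had 73.0, 83.4 and 85.8 CPM in control wells and 95.2, 98.7 and 101 CPM in treated wells. Every treated well was above every control well. The log2 fold change of 0.29 (SE 0.08) had an adjusted p of 0.0526 by edgeR and 0.0432 by DESeq2. LUM, encoding lumican, was near the limit of detection at 0.593 to 1.11 CPM (log2 fold change -0.06, edgeR adjusted p = 0.917).

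Among the 3 basement membrane linkers, NTN4 (ENSG00000074527), a laminin-binding netrin, was the sole one tested. It had 2.73, 2.75 and 2.29 CPM in control wells and 2.89, 1.45 and 2.56 CPM in treated wells. The groups overlapped, with vitamin C 2 lowest (log2 fold change -0.16, SE 0.24, edgeR adjusted p = 0.705).

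All 7 other secreted or surface matrix proteins were tested, 2 rose and 5 did not pass, with a median log2 fold change of 0.34. LRRC15 (ENSG00000172061, chr3:194355249-194369743), a leucine-rich repeat protein of the cell surface known from mesenchymal and stromal cells, had 3.53, 5.19 and 5.87 CPM in control wells and 9.71, 10.9 and 10.7 CPM in treated wells. Treated wells were close together and far above the controls. LRRC15 showed the largest rise of the called members, 2.13-fold, from 4.86 ± 1.2 to 10.4 ± 0.633 CPM (SD, n = 3 each), or 1.09 on the log2 scale (SE 0.17, adjusted p = 0.00936 by edgeR). MATN2 (ENSG00000132561, chr8:97868840-98036724), encoding the filament-forming adaptor matrilin 2, had 89.7, 115 and 123 CPM against 183, 151 and 171 CPM. Its groups were likewise apart, and it rose 1.54-fold (log2 fold change 0.62, SE 0.11, edgeR adjusted p = 0.0146).

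FSTL1 (ENSG00000163430), a secreted glycoprotein that binds BMP ligands and the second most abundant member per length in control wells, was nearly level, with 331, 328 and 332 CPM in control wells and 328, 329 and 338 CPM in treated wells. The wells of both groups were interleaved (log2 fold change 0.01, SE 0.07, edgeR adjusted p = 0.961). SRPX (ENSG00000101955), a sushi-repeat protein, had 47.5, 46.7 and 47.0 CPM against 42.2, 41.5 and 40.9 CPM. It was the 1 tested member with every treated well below every control well, and its log2 fold change of -0.18 (SE 0.07) did not pass (edgeR adjusted p = 0.143). ECM1, a secreted protein of skin and vessel matrix, had 16.7, 17.4 and 20.8 CPM against 23.8, 31.2 and 16.7 CPM. Vitamin C 2 was high and vitamin C 3 was within the control range, and the log2 fold change of 0.37 did not pass (edgeR adjusted p = 0.214). Without vitamin C 3 it was 0.59 and passed (edgeR adjusted p = 0.0172). MATN3, encoding a matrilin of cartilage (log2 fold change -0.00, edgeR adjusted p = 0.997), and SRPX2, a second sushi-repeat protein (0.34, edgeR adjusted p = 0.429), were under 4 CPM. For SRPX2, 52.0% of the exon length overlaps SYTL4 on the other strand, so its counts are uncertain.

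Levels of different genes were compared per kilobase of their canonical transcript. Over the tested members the control mean ranged from 0.339 CPM per kilobase for SRPX2 to 151 for THBS1. FSTL1 (58.1), EFEMP1 (57.0) and FN1 (37.9) followed THBS1, then MATN2 at 26.4 and SRPX at 25.5. In treated wells FN1 reached 66.4 CPM per kilobase, above FSTL1 at 58.4 and EFEMP1 at 48.0, and MATN2 reached 40.7. The LTBP genes kept one order in both groups, with LTBP1 at 4.60 and 6.83, LTBP2 at 2.06 and 2.88, LTBP4 at 1.88 and 2.53, and LTBP3 at 1.10 and 1.81 CPM per kilobase in control and treated wells. LRRC15, with the largest rise, was among the rarest at 0.827 and 1.77.

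**Figure D4:**
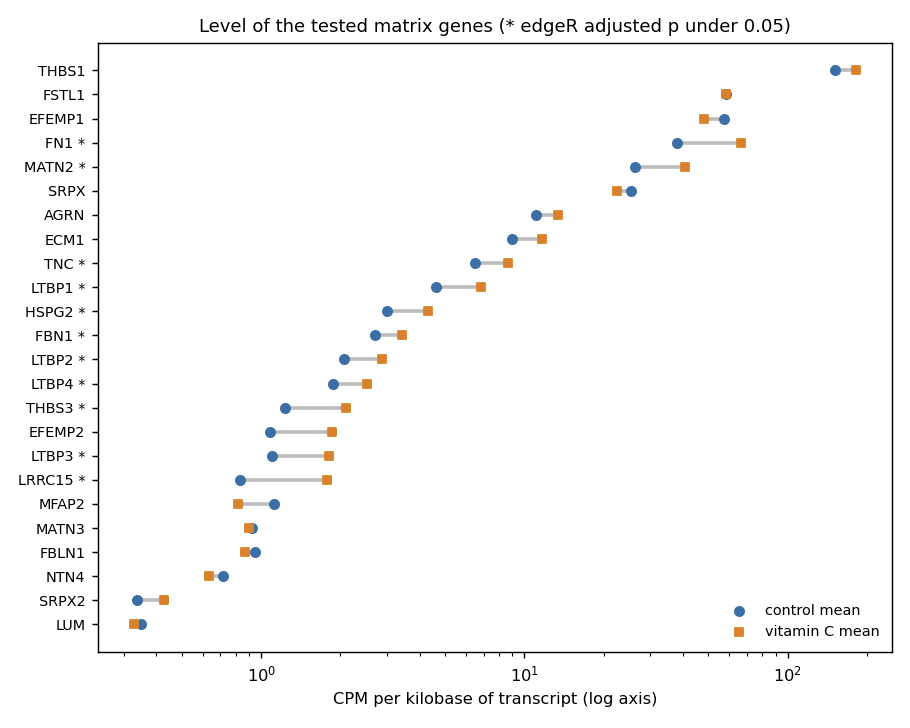
Mean level of the 24 tested matrix genes in CPM per kilobase of transcript on a log axis, for control (blue circles) and vitamin C (orange squares) wells, with asterisks for edgeR adjusted p under 0.05. THBS1 is highest at 151 and 182, and FN1 moves from 37.9 to 66.4.

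To compare related members within a library, which needs no scaling between libraries, the log2 ratio of CPM was taken for 9 pairs, of which 6 had both genes tested. With 3 wells against 3, the two-sided exact permutation test cannot go below p = 0.1. The ratio of EFEMP1 to EFEMP2 was 6.36, 6.22 and 5.92 in control wells and 5.35, 4.77 and 5.29 in treated wells, a difference of -1.03 (exact permutation p = 0.1, adjusted over the 6 pairs 0.2). MATN2 over MATN3 differed by 0.73 and THBS1 over THBS3 by -0.50, and in both pairs the groups did not overlap (exact permutation p = 0.1 and adjusted p = 0.2 for each). For AGRN over HSPG2 the difference was -0.24 (exact permutation p = 0.2, adjusted p = 0.3), for SRPX over SRPX2 -0.52 (exact permutation p = 0.3, adjusted p = 0.36) and for LTBP1 over LTBP3 -0.17 (exact permutation p = 0.6, adjusted p = 0.6). None of the 6 could pass in this design. Without control 1 the difference was -0.25 for THBS1 over THBS3 and -0.025 for LTBP1 over LTBP3, which was -0.061 without vitamin C 1, and for SRPX over SRPX2 it was -0.34 without control 2.

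Genes that act with the members were counted by list, beside 3.60% of all tested genes called higher, 3.48% lower, and 14.3% higher and 13.1% lower at an unadjusted p under 0.05. Of 15 enzymes that modify matrix or begin glycosaminoglycan chains, 14 were tested, 2 rose and 0 fell, with 3 higher and 0 lower at an unadjusted p under 0.05 and a median log2 fold change of 0.03. TGM2, encoding the transglutaminase that crosslinks fibronectin, had 378, 472 and 469 CPM in control wells and 685, 692 and 520.0 CPM in treated wells. The groups did not overlap, and TGM2 rose 1.44-fold (log2 fold change 0.52, SE 0.12, edgeR adjusted p = 0.0309). LOXL3, a lysyl oxidase that crosslinks collagen and elastin, had 3.13, 2.93 and 2.78 CPM against 4.0, 4.64 and 5.67 CPM. It rose by 0.71 on the log2 scale, with an adjusted p of 0.0403 by edgeR and 0.0586 by DESeq2.

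Of 41 other matrix glycoproteins and proteoglycans 14 were tested, and edgeR called 0 of them. At an unadjusted p under 0.05, 4 were higher and 0 lower, and DESeq2 called 1, EDIL3 (adjusted p = 0.0451 by DESeq2 and 0.104 by edgeR), which encodes an integrin-binding protein. Their median log2 fold change was 0.08. The most abundant per length were CCN1, a matricellular integrin ligand (92.3 and 112 CPM per kilobase, log2 fold change 0.28, edgeR adjusted p = 0.18), and SRGN, the core protein of serglycin (45.5 and 52.8 CPM per kilobase, log2 fold change 0.22, edgeR adjusted p = 0.193).

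Of 16 receptors of the members 13 were tested and edgeR called 0, with 3 higher and 1 lower at an unadjusted p under 0.05, 0 calls by DESeq2 and a median log2 fold change of 0.08. ITGB1, the beta chain of the fibronectin-binding integrins, was the most abundant at 581 and 662 CPM per kilobase (log2 fold change 0.19, edgeR adjusted p = 0.13). CD44, a hyaluronan receptor, followed at 177 and 211 CPM per kilobase (log2 fold change 0.25, edgeR adjusted p = 0.144). The 1 lower was ITGA5, an integrin alpha chain, with 53.2, 55.8 and 54.9 CPM in control wells and 45.7, 45.6 and 49.3 CPM in treated wells. Every treated well lay below every control well, and the log2 fold change of -0.22 did not pass (edgeR adjusted p = 0.0922).

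The list for latent TGF-beta held the ligands TGFB1, TGFB2 and TGFB3, all tested, and LRRC32, which is not a ligand and had 0 counts. Among the 3 tested ligands edgeR called 0, with 2 higher (TGFB2 and TGFB3) and 0 lower at an unadjusted p under 0.05. Their median log2 fold change was 0.28. TGFB2, the most abundant, had 186, 213 and 216 CPM in control wells and 255, 241 and 253 CPM in treated wells. The groups did not overlap, and the log2 fold change of 0.28 had an adjusted p of 0.0516 by edgeR and 0.0271 by DESeq2. TGFB3 had 2.96, 2.84 and 2.74 CPM in control wells and 3.48, 4.49 and 3.91 CPM in treated wells. Its groups also did not overlap, and its log2 fold change of 0.48 did not pass (edgeR adjusted p = 0.105). TGFB1 had 3.94 and 4.13 CPM per kilobase (log2 fold change 0.07, edgeR adjusted p = 0.775).

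The number of members called depended on single wells. With one control well removed, members called higher numbered 4 (control 1 removed, 0.436% of all genes tested in that fit), 3 (control 2, 0.523%) and 6 (control 3, 1.97%). With one treated well removed they numbered 5 (vitamin C 1, 1.47%), 7 (vitamin C 2, 1.73%) and 11 (vitamin C 3, 6.10%). In none of the 6 fits was a member called lower. The 11 called without vitamin C 3 were 9 of those called with all libraries, together with ECM1 and THBS1 (edgeR adjusted p = 0.0449). FN1, LTBP1 and LRRC15 were called in all 6, with log2 fold changes of 0.68 to 0.91, 0.52 to 0.61 and 0.92 to 1.24. MATN2 was lost in 1 of the 6, without control 2 (edgeR adjusted p = 0.0525), and TNC without control 1 and without control 2. LTBP2 and LTBP4 were lost whichever well was removed, and FBN1 in every case but the removal of vitamin C 3. HSPG2 and LTBP3 each lost the call on removal of any control well or of vitamin C 1, and THBS3 in 4 of the 6 fits, all but those that left out control 3 or vitamin C 3. TGM2 was lost in the same 4 cases as THBS3, and LOXL3 in all 6. The 11 log2 fold changes stayed positive in every one of these fits.

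**Figure D5:**
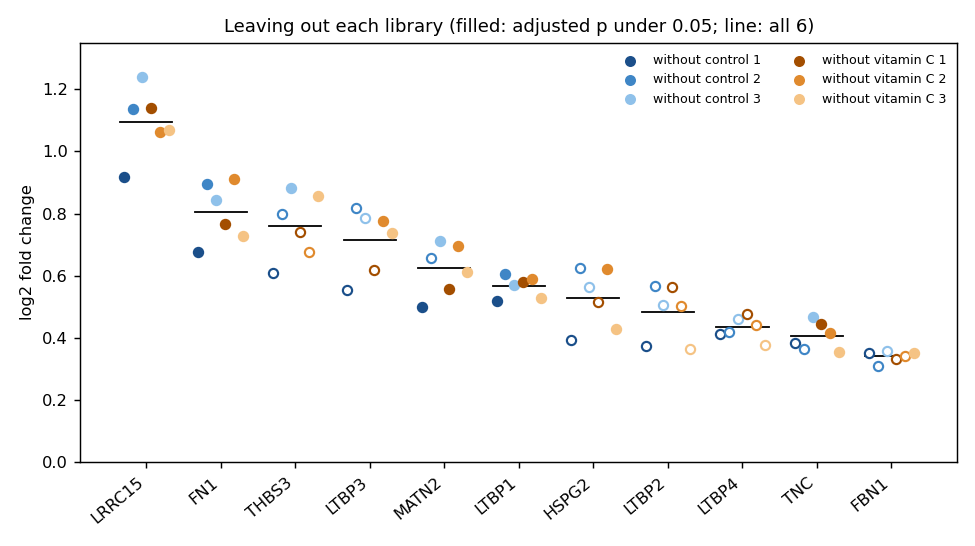
Log2 fold change of the 11 called matrix genes with each library left out in turn (circles, filled where the edgeR adjusted p was under 0.05) and with all 6 libraries (black line). Every circle lies above 0, and FN1, LTBP1 and LRRC15 are filled throughout.

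Control 1 was the lowest control well for 9 of the 11 called members and for 14 of the 24 tested, against 37.7% of all tested genes. Without control 1 and vitamin C 2 together, 5 members were called higher, namely FN1, LTBP1, LRRC15, MATN2 and HSPG2, against 0.981% of all genes tested in that fit. The called members also had long transcripts, with a median canonical length of 6502 bases (3145 to 14341) against 2863 over all tested genes. Transcripts of at least 5000 bases belonged to 11 of the 24 tested members, of which 7 were called higher, against 4.75% of all tested genes of that length. After correction for GC content and transcript length 7 members were called higher, against 3.28% of all tested genes. FN1, LTBP1, LRRC15, MATN2, TNC, THBS3 and FBN1 kept their calls, and the edgeR adjusted p was 0.0836 for HSPG2, 0.0514 for LTBP3, 0.079 for LTBP2 and 0.107 for LTBP4.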

How the data were processed

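The 6 MDA-MB-231 libraries, 3 control and 3 vitamin C (100 μM, 3 days), were grouped by their labels. RNA came from culture wells. The study's methods describe 3 wells per group in an experiment, and p-values cover only the variation among these wells, possibly technical. The submitters' processing notes name CASAVA 1.4 for base calling, Trim Galore for trimming and STAR for alignment to hg38. The files the authors deposited hold unnormalized read counts for each Ensembl gene. A table of all samples held the same values as the single files. The 4 summary lines per library (50.6% to 69.7% of read pairs) were left out.

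Symbols, positions and canonical transcript lengths came from GENCODE 44 (56558 of 60675 identifiers found), and promoter sequences from RefSeq on GRCh38.p14. Differential expression used R 4.3.3 and edgeR 4.0.16 (TMM, filterByExpr with a minimum count of 10, quasi-likelihood test, Benjamini-Hochberg adjustment over all tested genes). The biological coefficient of variation was 9.4%. DESeq2 1.42.0 and limma 3.58.1 served as alternatives, among others named under the processing of the results. Scripts were tested on simulated data. CPM values were from edgeR with TMM factors of 0.972 to 1.02, and log2 ratios used a prior count of 2. Every member is accounted for. Called members, members called by DESeq2 alone and the most abundant uncalled member of each role group are given well by well. Up to 4 called genes, or the 2 most abundant where none was called, are named per list of acting partners. EFEMP2, SRPX, ECM1, PDGFRB, EDIL3, ITGA5 and TGFB3 were detailed after their values were seen. The members and lists were chosen with earlier results of these data known.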

Additional observations from a re-analysis of the deposited data

How the results depend on the processing

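The 11 members called higher numbered 9 to 13 under other normalization factors, a mean of at least 1 CPM, the likelihood ratio and exact tests, limma-voom, DESeq2, both tools together or equal depth, and 14 with no filter and at an adjusted p under 0.10. They were 3 to 11 with 1 library left out, 5 without control 1 and vitamin C 2 together, 7 with correction for GC content and transcript length, and 3 at an adjusted p under 0.01. Members called lower were 1 (EFEMP1) with no filter. Over all genes the higher calls (549) were 1079 with no filter, 1059 by the likelihood ratio test, 1022 by the exact test, 69 to 942 with 1 library left out, 153 without control 1 and vitamin C 2, and 49 and 1256 at an adjusted p under 0.01 and 0.10. The lower calls (531) were 1166, 923, 911, 59 to 958, 115, 34 and 1210 under the same settings, and 857 by DESeq2. Upper-quartile factors made 64.6% of calls higher, against 50.8% with TMM. Among the acting partners, DESeq2 called 1 other matrix gene and 1 TGF-beta ligand, the calls were 3 enzymes and 1 TGF-beta ligand with upper-quartile factors, and with 1 library left out the enzymes had 0 to 2, the other matrix genes 0 to 1 and the receptors 0 to 1 higher. The difference in the member share of gene counts, 0.0614 percentage points, was 0.0375 without THBS1. Over the named genes and settings, 393 values kept their direction and side of the threshold, 64 lost the call, 16 gained it and 20 changed sign. The causes of these shifts were not tested.

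Samples with the same replicate number did not deviate together (correlations of -0.016, -0.0556 and -0.0452), so the numbers were not taken to pair the wells. With the replicate block 9 members were called higher (FBN1 and LTBP4 not), 1 enzyme was, and over all genes 393 were higher and 338 lower.

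The log2 fold change turned positive for FBLN1 without control 1 and vitamin C 2 (0.064), for LUM with correction (0.0057), for NTN4 without control 1 and vitamin C 2 (0.096) and at equal depth (0.017), and for MATN3 with upper-quartile factors (0.033), no factors (0.0017), a mean of at least 1 CPM (0.0033), without control 1 and vitamin C 2 (0.10) and with correction (0.027). It turned negative for FSTL1 with no filter (-0.016) and by DESeq2 (-0.0098). With 1 library left out it ranged across 0 for LUM (-0.29 to 0.13), NTN4 (-0.33 to 0.061), MATN3 (-0.40 to 0.23) and FSTL1 (-0.0095 to 0.013). None of these 5 genes was called in the edgeR fit of all 6 libraries. Depth limits the 15 untested members and those under 4 CPM. The alternatives of GC and length, equal depth and 2 libraries left out were chosen after seeing the data.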
